A study of Mus musculus with 6 samples.

Results

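Primitive endoderm is the first endoderm of the mammalian embryo, a sheet of cells that covers the epiblast of the blastocyst and goes on to form visceral and parietal endoderm. The transcription factors examined here were Gata4, Gata6, Sox17, Sox7, Foxa1, Foxa2, Foxa3, Hnf4a and Foxq1. They were taken by symbol from the deposited table, and all 9 had a row among its 24421 genes. RNA came from mouse iPSCs (induced pluripotent stem cells), reprogrammed cells in an embryonic stem cell-like state, grown with serum. The SRF KO group (SRFΔ/Δ) carried a deletion of Srf, the gene of serum response factor, and the WT group (SRFf/f) carried f/f alleles, the usual notation for floxed but undeleted ones, with 3 libraries in each group. No further treatment is named, and how the deletion was made is not given in the sources used here. They also do not say whether replicates were separate clones or cultures. The p-values below therefore measure the spread between these libraries, which may be technical.

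In the embryo, an FGF signal raises Gata6 in some cells of the inner cell mass, while Nanog marks the cells that become epiblast. Gata6 comes first, and Gata4, Sox17 and Sox7 follow. The Foxa factors, which can open closed chromatin, and the nuclear receptor Hnf4a act later, when visceral endoderm turns on genes for nutrient uptake and secreted carrier proteins. In cultured pluripotent cells, forced expression of Gata6 or Gata4 is known to be enough to start an endoderm-like program.

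Libraries held between 26321602 and 36680156 counts. Levels are given as CPM, the counts of a gene scaled to a common library size, after trimmed mean of M values (TMM) scaling of the library totals. WT replicate 2 stood farthest from its group, with a chi-square per degree of freedom of 12.9 and 15.3 against the other WT libraries, which differed by 3.81 from each other. Pairs of SRF KO libraries lay between 1.83 and 5.12. Srf itself had between 84 and 131 counts in SRF KO and between 765 and 1326 in WT, or -3.12 on the log2 scale (SE 0.13, edgeR adjusted p 8.1e-09), so that the targeted gene went the way of the labels. Pluripotency genes were abundant in every library, and Pou5f1 came to 773 ± 11.3 CPM in the SRF KO libraries and 818 ± 52.4 CPM in the WT libraries (SD, n = 3).

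With an adjusted p under 0.05 as the threshold, 8 of the 9 factors were higher in SRF KO, and the ninth, Foxa3, did not pass. Of all 14778 genes tested, 42.4% were called in either direction, 21.2% as higher and 21.3% as lower. The 8 factors all had a log2 fold change of at least 1, against 5.53% of genes called higher with such a value. The same 8 factors had no overlap between the groups, against 26.2% of genes whose SRF KO values all lay above their WT values. A log2 fold change of at least 3 with a call was reached by 7 factors, Gata4, Gata6, Sox17, Sox7, Foxa2, Hnf4a and Foxq1, against 60 genes or 0.406% of all tested. These factors were picked with earlier results of the same libraries known, so the counts describe them and support nothing further. A filter on low counts had to be passed first, and Foxa1, Foxa2 and Hnf4a passed it through the SRF KO libraries alone, so that a difference was built into their testing. The other 6 passed it in both groups. Of other genes named further below, 1010001N08Rik, Foxf1, Foxf2, Nr2f1, Lhx1, Gsc, Cdh5, Ttr and Dkk1 also passed it through SRF KO alone. In bulk RNA, fewer cells that express a gene and less RNA of it per cell cannot be told apart. Without WT replicate 2, which stood apart, the log2 fold changes of the 8 called factors were 1.72 for Foxa1, 3.55 to 3.89 for Sox17, Sox7, Gata6, Foxa2 and Gata4, 4.90 for Foxq1 and 6.20 for Hnf4a, all still called, and that of Foxa3 was 0.07.

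**Figure D1:**
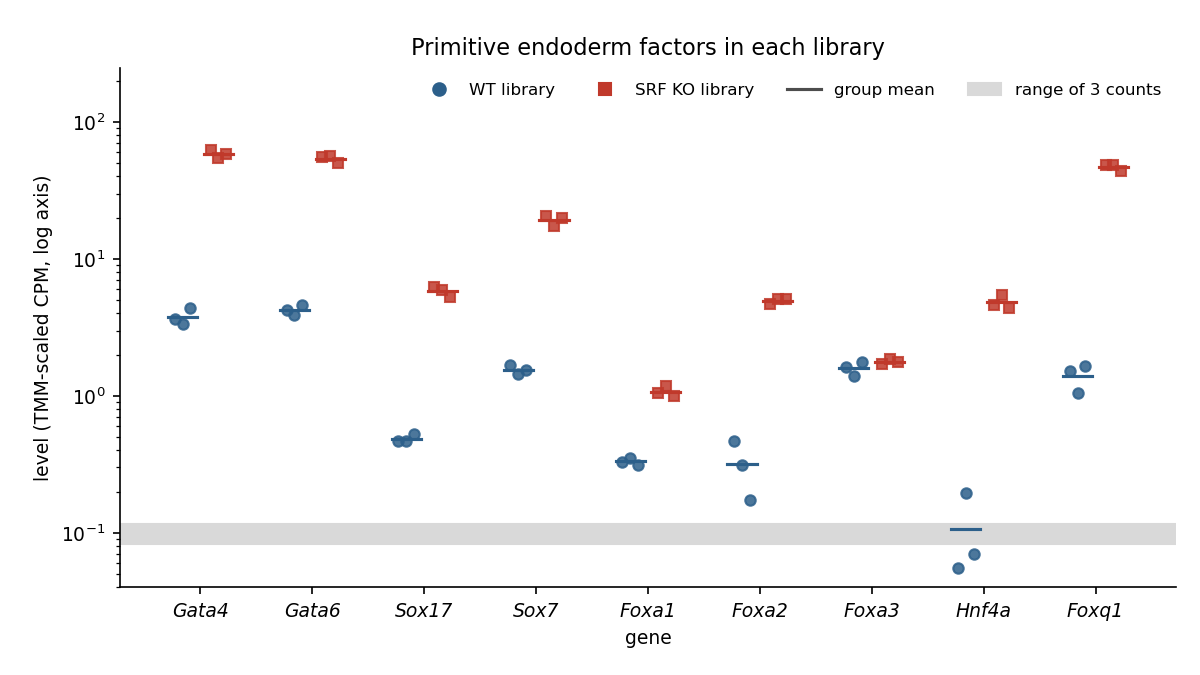
Level of each factor in each library, in TMM-scaled CPM on a log axis, with circles for the 3 WT libraries, squares for the 3 SRF KO libraries and lines for group means. The grey band is the range of 3 counts over libraries, and Foxa3 is the factor whose groups overlap.

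The earliest known factors of the lineage are GATA zinc finger proteins. Gata6, which comes first in the embryo, had 1485, 1491 and 1448 counts with SRF KO and 153, 101 and 132 with WT, values being listed by replicate number throughout. Scaled, these were 55.2, 56.3 and 50.1 CPM with SRF KO and 4.22, 3.93 and 4.601 CPM with WT. Every SRF KO library thus lay far above every WT library, and the lowest SRF KO value was 10.9 times the highest WT value. The ratio of the group means was 12.7, and the log2 fold change was 3.66 (SE 0.09, edgeR adjusted p 5.5e-11). Every adjusted p-value is from edgeR's quasi-likelihood test, adjusted after Benjamini and Hochberg. Each SE given with it is the absolute log2 fold change divided by the square root of the F statistic of that test. Gata4, a close relative that shares many target genes, had 62.2, 54.8 and 58.2 CPM with SRF KO and 3.64, 3.34 and 4.36 CPM with WT. Its groups did not overlap either, with a ratio of means of 15.4 and a value of 3.95 on the log2 scale (SE 0.10, edgeR adjusted p 7.3e-11).

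Gata6 was never near absent in WT, where at least 101 counts were seen. A second entry at the same locus, 1010001N08Rik, is annotated on the opposite strand and overlaps Gata6. It had 39, 39 and 47 counts in SRF KO and 6, 5 and 4 in WT, which gave 3.16 on the log2 scale (SE 0.26, edgeR adjusted p 2.8e-06). The sources do not state whether counting used strand, so reads of these overlapping entries may not be separable. Entries annotated opposite Sox17 (Gm37587) and Foxq1 (A530084C06Rik) were not analysed here. Within each library, the log2 ratio of Gata4 to Gata6 counts was 0.17, -0.04 and 0.22 in SRF KO and -0.21, -0.23 and -0.08 in WT. Gata4 thus stood slightly higher against Gata6 in every SRF KO library, but the nearest values, -0.04 in SRF KO and -0.08 in WT, all but touched. In WT, counting alone gives a coefficient of variation of 9.35% for Gata4 and 8.82% for Gata6, so that gap is within counting error. The mean difference was 0.29. The exact two-sided permutation p was 0.1, which is the smallest that 3 libraries against 3 can give, or 0.15 adjusted over the 6 ratios examined.

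Other GATA factors had values near 0. Gata1, Gata2 and Gata3, regulators of blood and trophoblast, had log2 fold changes of -0.27, -0.20 and 0.02, and none passed the threshold (edgeR adjusted p 0.627, 0.251 and 0.978). Gata5 had at most 2 counts in any library and was not tested. Of the cofactors that bind GATA proteins, Zfpm1 and Zfpm2 (the FOG proteins) rose by 0.42 and 0.72 on the log2 scale (edgeR adjusted p 0.0166 and 0.0058). The call of Zfpm1 was lost without SRF KO replicate 1, at 0.32. Over the 6 relatives tested, 2 were higher and 4 did not pass the threshold, and the median was 0.07, against -0.01 over all genes. That median rests on few genes and was -0.03 without WT replicate 3 and 0.27 without WT replicate 1.

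Sox17 and Sox7 belong to the SOXF group, HMG-box factors of endoderm and vessels. Sox7 had 556, 460 and 572 counts in SRF KO and 61, 37 and 44 in WT, which is 20.7, 17.4 and 19.8 CPM against 1.68, 1.44 and 1.53 CPM. Sox17, which helps keep primitive endoderm cells in their lineage, had 167, 157 and 153 counts in SRF KO and 17, 12 and 15 in WT, or 6.21, 5.93 and 5.29 CPM against 0.469, 0.466 and 0.523 CPM. For both genes, all SRF KO libraries were at least 10.1 times the highest WT library. The log2 fold changes were 3.62 for Sox7 (SE 0.12, edgeR adjusted p 8.8e-10) and 3.57 for Sox17 (SE 0.17, edgeR adjusted p 2.3e-08).

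The balance of the pair did not differ beyond its spread between libraries. The log2 ratio of Sox17 to Sox7 was -1.74, -1.55 and -1.90 in SRF KO and -1.84, -1.62 and -1.55 in WT, with overlapping groups. The difference of the means was -0.06 (exact two-sided permutation p 0.8, adjusted 0.8), and it lay between -0.15 and 0.03 when single libraries were left out. The third SOXF gene, Sox18, known from vessels and lymphatics, had 26, 24 and 25 counts in SRF KO and 14, 14 and 15 in WT. It rose by 0.93 on the log2 scale (edgeR adjusted p 0.0090), a call that was lost with DESeq2 (0.94) and without WT replicate 1 (0.77). Of the 15 SOX genes tested besides these factors, Sox18 included, 4 were higher, 3 were lower and the median was 0.00. Sox9, a factor of cartilage and ducts, rose by 0.83, Sox4 rose by 0.48, Sox15 fell by 1.23 and Sox12 fell by 0.44 on the log2 scale.

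**Figure D2:**
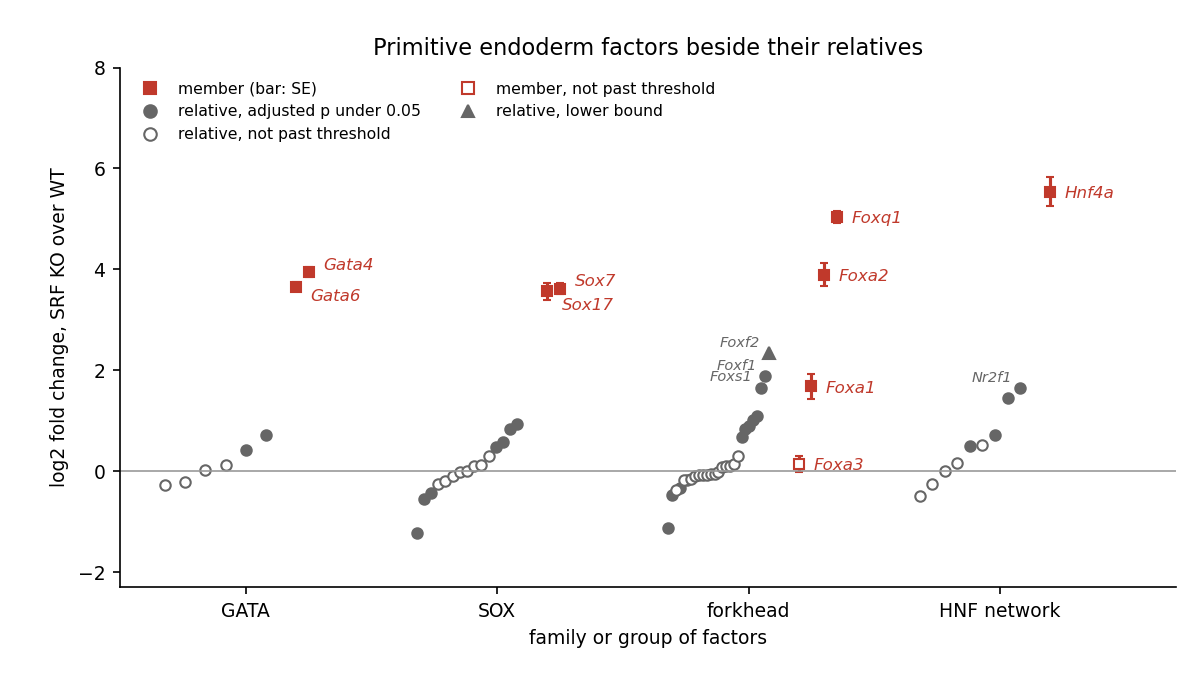
Log2 fold change of the factors (squares, bars show the SE) and of their tested relatives (circles) by family, SRF KO over WT. Filled symbols passed an adjusted p of 0.05, the triangle is a lower bound, and among forkhead factors Foxa3 lies near 0 while Foxa2 and Foxq1 lie at 3.89 and 5.04.

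The 3 Foxa genes are paralogs with nearly the same forkhead domain, and their changes differed in size here. Foxa2, used by visceral, definitive and gut endoderm, had 126, 135 and 148 counts in SRF KO and 17, 8 and 5 in WT, or 4.68, 5.10 and 5.12 CPM against 0.469, 0.311 and 0.174 CPM. Its groups did not overlap, although its WT values were few and uneven. The log2 fold change was 3.89 (SE 0.22, edgeR adjusted p 1.3e-07), and it was between 3.61 and 4.35 when single libraries were left out. Foxa1 stayed low, with 28, 31 and 29 counts in SRF KO and 12, 9 and 9 in WT. That is 1.04, 1.17 and 1.003 CPM against 0.331, 0.3498 and 0.314 CPM, or 1.68 on the log2 scale (SE 0.24, edgeR adjusted p 0.0002).

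Foxa3, best known from liver, was the exception. It had 46, 49 and 51 counts in SRF KO and 59, 36 and 51 in WT, which is 1.71, 1.85 and 1.76 CPM against 1.63, 1.40 and 1.78 CPM. The groups overlapped, and the log2 fold change was 0.14 (SE 0.16, edgeR adjusted p 0.529). The log2 ratio of Foxa3 to Foxa2 counts was 1.80, 2.17 and 3.35 in WT and -1.45, -1.46 and -1.54 in SRF KO, so that its sign was the opposite one in every library of the other group. The log2 ratio of Foxa1 to Foxa2 was -0.50, 0.17 and 0.85 in WT and -2.17, -2.12 and -2.35 in SRF KO. Mean differences were -3.92 and -2.39, each with the smallest possible exact two-sided permutation p of 0.1 (adjusted 0.15).

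The bases before annotated starts of these paralogs are shown side by side, from RefSeq on GRCm38.p6. Windows of 300 bases around 7 annotated starts were found for 4 of the factors (Foxa1, Foxa2, Foxa3 and Hnf4a). They were searched on both strands for AGATAA and TGATAA (bound by GATA factors), ACAATG (SOX), TGTTTAC (forkhead) and the CArG box (SRF). Capitals mark a match, all stretches are on the minus strand of the genome written 5′ to 3′, and they lie at chr12:57546122-57546361 (Foxa1), chr2:148045465-148045714 (Foxa2, before the start with the lowest coordinate of 3) and chr7:19023540-19023789 (Foxa3).
Foxa1: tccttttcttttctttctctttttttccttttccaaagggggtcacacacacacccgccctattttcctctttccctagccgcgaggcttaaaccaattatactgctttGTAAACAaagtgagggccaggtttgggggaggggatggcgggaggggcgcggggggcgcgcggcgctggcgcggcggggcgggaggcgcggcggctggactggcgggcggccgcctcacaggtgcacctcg
Foxa2: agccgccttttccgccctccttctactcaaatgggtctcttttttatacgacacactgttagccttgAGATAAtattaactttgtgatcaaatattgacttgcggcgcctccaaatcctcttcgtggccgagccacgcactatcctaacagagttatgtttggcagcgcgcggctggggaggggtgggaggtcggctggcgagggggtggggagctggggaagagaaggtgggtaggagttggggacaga
Foxa3: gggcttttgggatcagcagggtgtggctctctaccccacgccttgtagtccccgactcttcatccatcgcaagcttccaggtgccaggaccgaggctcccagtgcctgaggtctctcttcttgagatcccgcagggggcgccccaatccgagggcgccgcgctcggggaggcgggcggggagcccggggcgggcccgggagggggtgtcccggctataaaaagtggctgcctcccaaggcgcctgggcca
Foxa2 held AGATAA 183 bases before that start, and Foxa1 held the forkhead word on the opposite strand, 141 bases before its start. The other Foxa2 windows held none of these words, so the stretch shown is the only Foxa2 one with a match. By the gene positions given further below, the Foxa1 and Foxa2 stretches lie inside the gene and the Foxa3 stretch before it. In the Foxa3 window none of these words was found. AGATAA occurred in 2 of the 7 windows and in 11.2% of 32851 promoter windows, and TGTTTAC in 1 of 7 and in 3.65% of all. No CArG box was in the 7 windows, and 1.63% of all windows held one. Such matches describe letters in these windows, not binding.

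Foxq1, a forkhead factor best known from hair and stomach lining, had one of the largest differences. There were 1302, 1286 and 1265 counts in SRF KO and 55, 27 and 47 in WT, or 48.4, 48.6 and 43.7 CPM against 1.52, 1.05 and 1.64 CPM. The lowest SRF KO value was 26.7 times the highest WT value. The log2 fold change was 5.04 (SE 0.12, edgeR adjusted p 5.3e-11), and 14 genes of all tested had a larger one. Against Foxa2, its log2 ratio was 3.37, 3.25 and 3.10 in SRF KO and 1.69, 1.75 and 3.23 in WT, with overlapping groups (difference 1.01, exact two-sided permutation p 0.2, adjusted 0.24).

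Of 40 other forkhead genes listed, 27 were tested, of which 8 were higher and 4 lower, with a median of -0.01. Over all genes, 42.4% were called, so such a count says nothing particular about the family. Foxf2 had 14 counts in each SRF KO library and at most 3 in WT, at least 5.04-fold higher against a floor of 3 counts per library (edgeR adjusted p 0.00093). Foxf1, a factor of gut and lung mesenchyme like Foxf2, rose by 1.88 (edgeR adjusted p 0.0012). Foxh1, a partner of Smad proteins downstream of Nodal, rose by 0.67, while Foxn4 and Foxn3 fell by 1.13 and 0.34 on the log2 scale.

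Hnf4a, a nuclear receptor that drives genes of lipid transport and uptake in visceral endoderm and liver, came closest to an on and off pattern. It had 125, 145 and 127 counts in SRF KO and 2, 5 and 2 in WT, or 4.65, 5.48 and 4.39 CPM against 0.0552, 0.194 and 0.0697 CPM. With the 2 WT libraries at 2 counts set to 3 counts, its mean was 38.0 times higher in SRF KO. The fitted log2 fold change was 5.54 (SE 0.28, edgeR adjusted p 5.3e-08). The fold change rests on few WT counts. It lay between 5.18 without WT replicate 1 and 6.20 without WT replicate 2, the library with 5, when single libraries were left out. An antisense entry that overlaps the gene, Hnf4aos, had 0 counts in all 6 libraries. The RefSeq window at the upstream start of Hnf4a held AGATAA 52 bases before that start, shown here with its flanks from the plus strand at chr2:163506796-163506819, the match in capitals.
Hnf4a: gaatcaataAGATAAccgggcggg
By the gene positions given further below, this match lies across the annotated start of the gene at 163506808, so part of it is inside the gene. The table counts whole genes, so it does not show which of the annotated starts was used.

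Of 14 partners of Hnf4a and the Foxa factors in endoderm and liver, 9 were tested, of which 4 were higher and 5 did not pass the threshold, with a median of 0.49 (0.18 without SRF KO replicate 3). Nr2f1 and Nr2f2, orphan nuclear receptors of mesenchyme and vessels, rose by 1.64 and 1.45 on the log2 scale (edgeR adjusted p 0.00026 and 6.1e-05). Cebpa and Cebpb, factors of liver and fat, rose by 0.49 and 0.72 (edgeR adjusted p 0.0150 and 0.0175). The call of Cebpa was lost without SRF KO replicate 1 (0.44), and that of Cebpb was lost with DESeq2 (0.75) and without SRF KO replicate 3 (0.71). Hnf4g had 0 counts in every library.

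To compare amounts between genes, levels were divided by the length of annotated exons (CPM per kilobase, kb). In SRF KO the order was Gata4 at 14.96 ± 0.945, Foxq1 at 9.68 ± 0.566, Gata6 at 8.28 ± 0.513, Sox7 at 5.84 ± 0.516, Foxa2 at 2.10 ± 0.104, Sox17 at 1.22 ± 0.0986, Hnf4a at 1.002 ± 0.118, Foxa3 at 0.871 ± 0.0350 and Foxa1 at 0.322 ± 0.0265 CPM per kb (SD, n = 3). Sox17 and Hnf4a overlapped in that order, and Hnf4a and Foxa3 all but touched, at 0.9094 and 0.9086. In WT, Gata4 led at 0.969 ± 0.133, followed by Foxa3 at 0.787 ± 0.0936 and Gata6 at 0.653 ± 0.0520 CPM per kb, and both neighbouring pairs overlapped. Below them were Sox7 at 0.470 ± 0.0376, Foxq1 at 0.290 ± 0.0643, Foxa2 at 0.134 ± 0.0623, Sox17 at 0.102 ± 0.00666, Foxa1 at 0.0997 ± 0.00543 and Hnf4a at 0.0220 ± 0.0158 CPM per kb. Foxa2, Sox17 and Foxa1 overlapped. Among the 3 Foxa genes, Foxa3 thus stood first in WT and Foxa2 in SRF KO. Foxa3 went from the second place in WT to the eighth in SRF KO with almost the same level per length, and Foxq1 went from the fifth to the second. With the longest transcript as the length, Gata6 came to 14.2 in SRF KO and 1.12 in WT, above Foxq1 in the first and beside Gata4 (1.11) in the other.

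**Figure D3:**
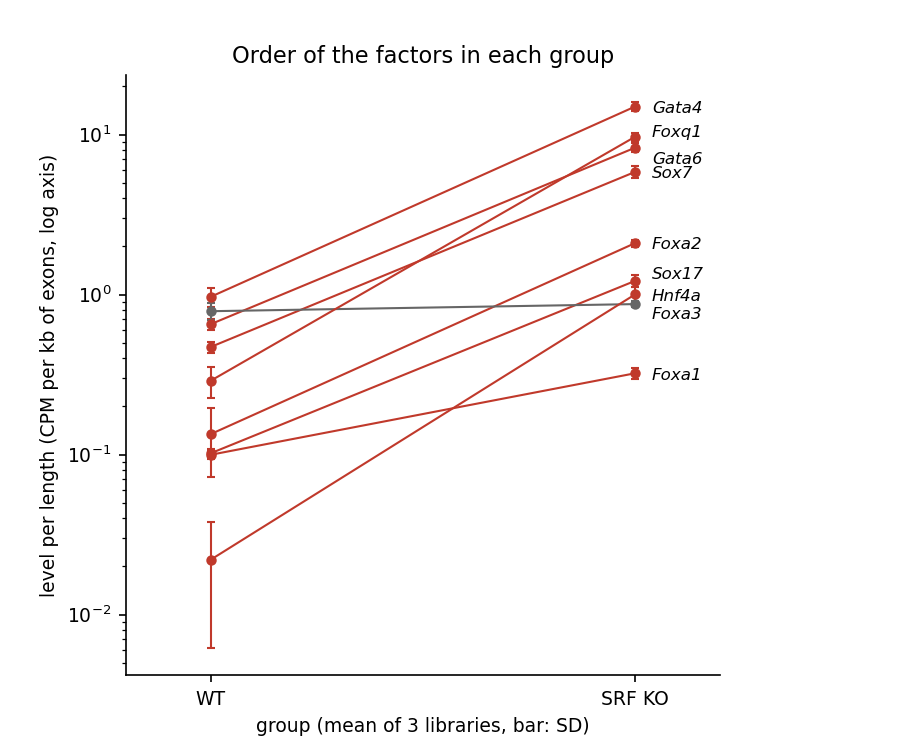
Mean level per kb of annotated exons of each factor in WT and SRF KO, on a log axis, with bars for the SD of 3 libraries. Red lines are genes past the threshold, and the grey line is Foxa3, which runs flat from 0.787 to 0.871 CPM per kb.

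Replicates were close for the abundant factors. In SRF KO the coefficient of variation was 6.32% for Gata4, 6.19% for Gata6 and 5.85% for Foxq1, where counting alone gives 2.50%, 2.60% and 2.79%. Over all 9 factors it was between 4.02% and 11.7% in SRF KO. In WT it was between 5.44% and 71.9%, the highest being those of Hnf4a at 71.9% and Foxa2 at 46.4%, where counting alone gives 57.7% and 31.6%. The lowest were those of Foxa3 in SRF KO and Foxa1 in WT, where counting alone gives 14.3% and 31.6%. Such close values therefore do not measure the precision of these 2 genes.

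Nanog is the epiblast factor that opposes Gata6. The log2 ratio of Gata6 to Nanog counts was -2.21, -2.20 and -2.35 in SRF KO and -6.72, -6.83 and -6.58 in WT. The difference was 4.46 (exact two-sided permutation p 0.1, the smallest possible, adjusted 0.15). As plain ratios of counts, not corrected for length, these were between 0.197 and 0.218 in SRF KO and between 0.00878 and 0.0104 in WT. Nanog itself fell by 0.79 on the log2 scale (edgeR adjusted p 1.1e-07), while Gata6 rose by 3.66. Of 11 epiblast factors, Nanog among them, 6 were lower and 3 higher, with a median of -0.34. Tfcp2l1, Klf4 and Esrrb fell by 0.70, 0.52 and 0.49 on the log2 scale. The 3 higher ones, Otx2, Klf5 and Zfp42, rose by 0.51, 0.33 and 0.17 (edgeR adjusted p 0.00041, 0.00078 and 0.0312).

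**Figure D4:**
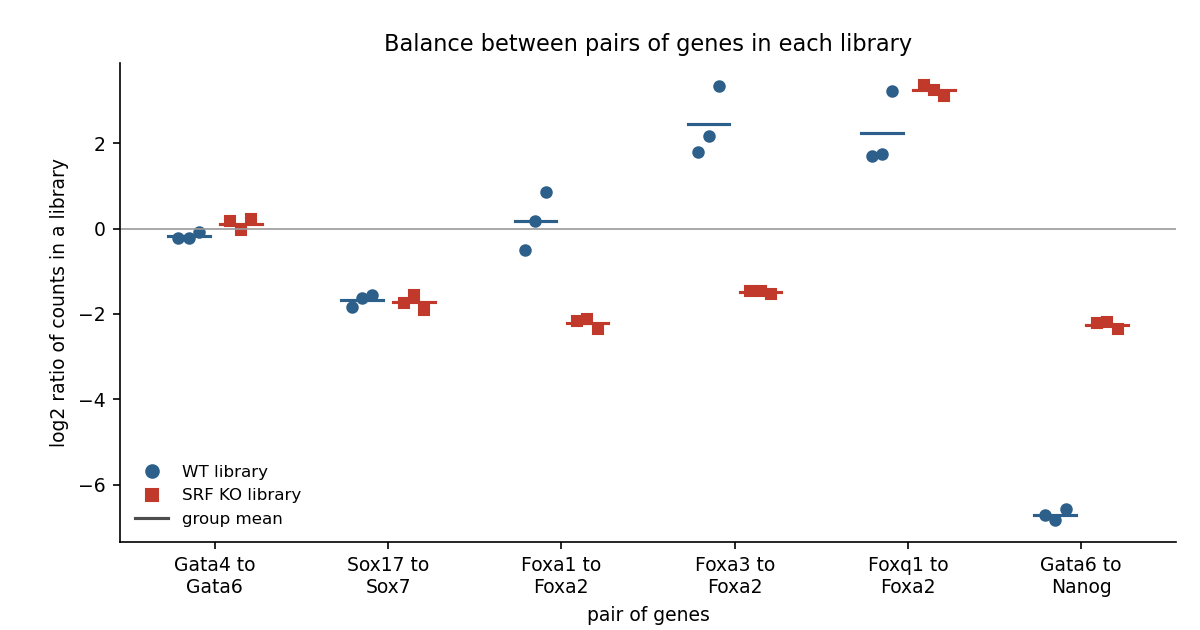
Log2 ratio of counts of named gene pairs within each library, with circles for WT, squares for SRF KO and lines for means. The groups stand apart for Foxa1 to Foxa2, Foxa3 to Foxa2 and Gata6 to Nanog, lie close for Gata4 to Gata6 and overlap for Sox17 to Sox7 and Foxq1 to Foxa2.

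The signal that starts the lineage was examined next. Of 12 genes of the FGF pathway, all tested, 4 were higher and 3 lower, with a median of 0.03. The ligand Fgf4 and the receptors Fgfr1 and Fgfr2 were not past the threshold, at -0.08, 0.12 and -0.15 (edgeR adjusted p 0.290, 0.156 and 0.155). Among genes that respond to FGF signals, Etv4, Spry4 and Spry2 rose by 0.66, 0.48 and 0.34, and Etv5 fell by 0.53 on the log2 scale.

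Other genes that mark the lineage were mostly higher. Of 12 primitive endoderm markers, 9 were higher and 1 lower, with a median of 1.41. Lrp2 (megalin, an uptake receptor) rose by 3.89, Amot (a regulator of Hippo signalling and polarity) by 3.69, Dab2 (an endocytic adaptor) by 3.68 and Pdgfra (a receptor that primitive endoderm cells depend on) by 3.35 on the log2 scale. Of 19 visceral endoderm markers, 16 were tested, of which 12 were higher and 3 lower, with a median of 2.33. Among the higher ones, Ttr, Apoa1, Cer1, Apom, Ihh and Dkk1 passed the filter on low counts through the SRF KO libraries alone. A difference was thus built into their testing, and the count and the median describe the list only. Cubn (cubilin, the partner of megalin) rose by 5.88, the Wnt antagonist Dkk1 by 5.02, Apob (the protein of lipoprotein particles) by 4.16 and Amn (a membrane anchor of cubilin) by 3.31. Ttr, the carrier of thyroid hormone, had 52, 35 and 51 counts in SRF KO and 0 in every WT library, at least 16.5-fold higher against 3 counts per library. Afp, the fetal serum protein, had at most 3 counts in any library, and Apoe, Lefty1 and Rhox5 were the 3 lower genes. Of 15 parietal endoderm markers, 12 were higher and 3 did not pass the threshold, with a median of 1.25, including the basement membrane genes Col4a1 (3.36), Col4a2 (2.97), Lama1 (2.76) and Sparc (1.80).

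**Figure D5:**
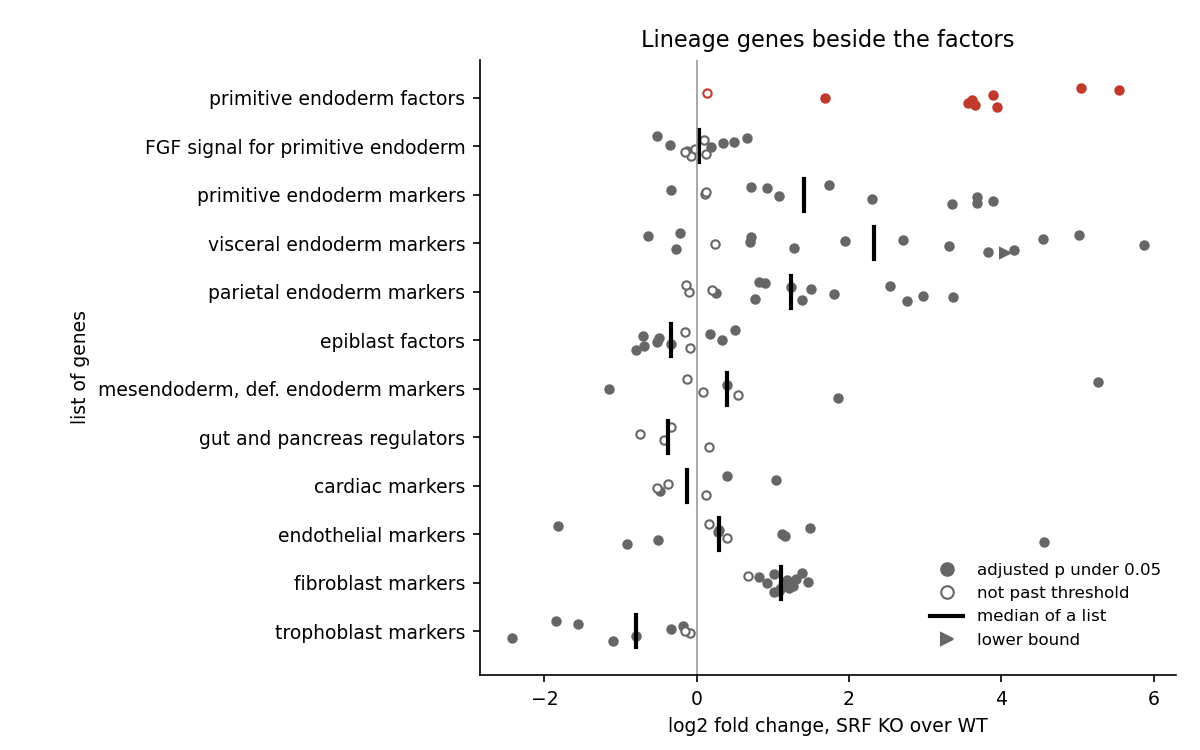
Log2 fold change of each tested gene by list, SRF KO over WT, with the 9 factors in red. Filled symbols passed an adjusted p of 0.05, the triangle is a lower bound, and bars are medians. These are 1.25 to 2.33 for the 3 extraembryonic endoderm lists and near 1.11 for fibroblast markers. Smaller positive medians are those of mesendoderm and definitive endoderm (0.40), endothelial (0.29) and FGF (0.03) genes.

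Several other tissues use the same factors, and their markers were counted in the same way. Definitive endoderm shares Foxa2 and Sox17. Of its 9 markers and those of the streak, 7 were tested, with 3 higher, 1 lower and a median of 0.40. Lhx1, which anterior visceral endoderm also expresses, rose by 5.27, Gsc by 1.86 and Cxcr4 by 0.40, and T, the Brachyury gene, fell by 1.15. Lhx1 and Gsc passed the filter on low counts through the SRF KO libraries alone. The call of Cxcr4 was lost with DESeq2 (0.40) and without SRF KO replicate 1 (0.36), SRF KO replicate 3 (0.34), WT replicate 1 (0.35) or WT replicate 3 (0.41). The summed CPM of these 9 genes was 35.4 to 36.8 in the SRF KO libraries and 25.8 to 27.2 in the WT libraries. Most of that gap was Lhx1 alone, at 8.50 to 8.85 CPM in SRF KO and 0.155 to 0.349 CPM in WT. Of 12 gut and pancreas regulators, 4 were tested (Cdx1, Cdx2, Mnx1 and Pax6), at -0.75 to 0.17 with edgeR adjusted p between 0.114 and 0.336. Nkx2-1, Nkx2-3 and Ptf1a were at or under 3 counts in every library. Pdx1, the pancreas regulator, was too low to be tested, with 7, 6 and 5 counts in SRF KO and 1, 0 and 1 in WT. The list, most of whose level was Cdx1 at 14.3 to 18.3 CPM, summed to 18.0 to 22.2 CPM with SRF KO and 18.3 to 19.4 CPM with WT.

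Heart cells use Gata4 and Gata6. Of 11 cardiac markers, 6 were tested, 2 were higher (Mef2c at 1.04 and Ryr2 at 0.40) and 1 was lower (Myh6 at -0.48). Their summed CPM was 21.5 to 23.9 with SRF KO and 20.8 to 21.8 with WT, with Hand2 and Actc1 at or under 3 counts in every library. Vessels use Sox7, Sox17 and Sox18. Of 12 endothelial markers, 11 were tested, 6 were higher and 3 were lower. Their summed CPM was 110 to 113 with SRF KO and 122 to 127 with WT. Pecam1 gave 28.1 to 30.2 CPM of that sum with SRF KO and 52.6 to 58.0 with WT, more than the whole fall. Cdh5, a junction protein of vessels, rose by 4.56 and Esam by 1.12, while Vwf and Pecam1 fell by 1.83 and 0.92 on the log2 scale.

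Fibroblast markers moved with the groups. Of 14 listed, 13 were higher, by 0.81 to 1.46 on the log2 scale, and Fap at 0.68 did not pass the threshold. Their summed CPM was 965 to 1150 with SRF KO and 475 to 530 with WT. None of the 14 was at or under 3 counts in every library. The largest of these values was that of Twist2 at 1.46 (SE 0.20), and the smallest among the 8 factors called was that of Foxa1 at 1.68 (SE 0.24), a gap within these errors. The median of the fibroblast list was 1.11, beside 1.25 for the parietal endoderm markers. The part of fibroblasts in the values of the factors or of the endoderm lists was not tested. Trophoblast markers were lower, 7 of 9 tested, with a median of -0.80, among them Krt7 at -2.43, Rhox9 at -1.85, Rhox6 at -1.55 and Tfap2c at -1.10, and the list summed to 114 to 127 CPM with SRF KO and 169 to 184 CPM with WT. The list also held Psx1, an older name of Rhox6 in RefSeq, so that it covers 11 genes.

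The genes beside each factor on its chromosome were compared as well, with positions from GENCODE M21 on GRCm38, the assembly that mm10 names. Gata4 lies on chromosome 14 at 63198922 to 63271692 and Sox7 on the same chromosome at 63943673 to 63950732, 672 kb apart. Sox17 lies on chromosome 1 at 4490931 to 4497354, Foxa1 on chromosome 12 at 57540628 to 57546916, Foxa3 on chromosome 7 at 19013284 to 19023538 and Foxq1 on chromosome 13 at 31556134 to 31560976. Both Foxa2 (148042877 to 148046969) and Hnf4a (163506808 to 163572910) lie on chromosome 2, and Gata6 lies on chromosome 18. All are annotated as protein-coding. Of the 18 nearest genes with a row in the table, 1 on each side, 10 were tested, 2 were higher, 3 were lower and 5 were not called.

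The 10 tested neighbours lay between -0.77 and 0.66. The other 8 had too few counts for a test, among them Blk beside Gata4, with 2, 2 and 5 counts in SRF KO and 0 in each WT library. Neil2, a DNA repair gene 5.07 kb from Gata4, fell by 0.77 (edgeR adjusted p 4.9e-05), and Mipol1, next to Foxa1, fell by 0.56. R3hdml and Ttpal, on the sides of Hnf4a, rose by 0.66 and 0.31, and Mib1, beside Gata6, fell by 0.15 on the log2 scale. The calls of R3hdml and Mib1 were near the threshold (edgeR adjusted p 0.0374 and 0.0423) and were lost under DESeq2 (0.67 and -0.14), with no filter on low counts (0.66 and -0.15) and in 5 of the 6 fits that left out 1 library, the exception for both being WT replicate 2. That of Mib1 was also lost with library totals alone (-0.11). Sympk, 0.839 kb from Foxa3, was at -0.16, which missed the threshold (edgeR adjusted p 0.0652).

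Genes with the most similar profile were sought among 12337 genes with a mean of at least 50 counts. Likeness was the root mean square difference over the 6 libraries from the median profile of the 9 factors, in log2 units relative to the WT mean, which is mostly a difference between the 2 groups. The nearest were Dab2 (0.0884), Amot (0.101), Dgkk (0.160), Cyp26a1 (0.174) and Clic6 (0.177). Cyp26a1, which degrades retinoic acid, had 240, 221 and 205 counts in SRF KO and 23, 16 and 14 in WT, and Dgkk, a diacylglycerol kinase, had 628, 627 and 548 against 66, 50 and 49. Clic6, of the chloride intracellular channel family, had 448, 457 and 503 counts in SRF KO and 55, 38 and 34 in WT. These are descriptions of profiles over 6 libraries and carry no test.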

How the data were processed

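The deposited table holds raw counts of reads per gene and per transposable element subfamily, judged from its whole numbers, for 3 SRF KO and 3 WT libraries of mouse iPSC RNA. Per the labels' protocols, paired 150 bp reads had been cleaned of adaptor, low-quality and empty reads. The submitters' processing notes name mm10 and DESeq2 without a role. The aligner, the counting program, its annotation and its use of strand are not given in the sources used here.

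Genes and element subfamilies entered 1 fit with edgeR 4.0.16 in R 4.3.3: filterByExpr (minimum count 10), TMM scaling, quasi-likelihood test, SRF KO against WT, Benjamini-Hochberg adjustment over all entries, threshold 0.05. The lists GATA, SOX and forkhead relatives, hepatocyte nuclear factor network, FGF signal, lineage and tissue markers were typed from general knowledge. Some genes of the hepatocyte nuclear factor network are not reported here, and its counts and median leave them out. The factors, lists and tests were chosen with earlier results of these data known. Named are the 9 factors, Srf, up to 4 called genes per list with the smallest adjusted p, chromosomal neighbours, overlapping genes and the 5 nearest profiles. Gata1, Gata2, Gata3, Gata5, Sox18, Foxf1, Hnf4g, Afp, Pou5f1, Otx2, Klf5, Zfp42, Fgf4, Fgfr1, Fgfr2, Ttr, Apoe, Lefty1, Rhox5, Twist2, Fap, Cdx1, Cdx2, Mnx1, Pax6, Pdx1 and genes named for being near silent were added after their values were seen. Apoa1, Apom, Cer1 and Ihh were also named after their values were seen. Values at or under 3 counts were set to 3 counts for ratios and folds. For likeness of profiles, the CPM of 3 counts was added before taking log2. Counting error limits the precision of low genes, and 3 counts are between 0.0828 and 0.117 CPM. Motif shares are over all windows of 250 bases before to 50 after a RefSeq start. The fits were tested on simulated data. Alternatives were DESeq2 1.42.0, other scalings, no filter, gene entries alone, a replicate block, other thresholds and leaving out each library.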

Additional observations from a re-analysis of the deposited data

How the results depend on the processing

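All 8 calls among the 9 factors, and the lack of one for Foxa3, held under each alternative run, with no change of direction: 108 of 108 comparisons. The 14 counts of factors called also stayed at 8, including at an adjusted p under 0.01 or with a minimum absolute log2 change of 1. Over all genes, 817 were higher and 260 lower with a minimum absolute log2 change of 1, and 2013 were lower at an adjusted p under 0.01, where stricter thresholds lower counts by construction. Leaving out single libraries gave 2444 to 3635 genes higher and 2271 to 3774 lower. Srf was between -3.23 and -2.97.

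The main fit used no pairing by replicate number. Deviations of same-numbered libraries correlated at 0.047, 0.279 and 0.148. Libraries with different numbers were not compared in this way, so whether the numbers mark a pairing was not tested. With a replicate block, 8 factors were called higher and 0 lower, as without it, and Hnf4a was at 5.53. Over all genes, 3659 were called higher and 3853 lower with the block, more than the 3132 and 3141 of the main fit. Sympk, at -0.16, passed the threshold with the block.

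Medians of lists moved by more than their spread between replicates in some settings. With library totals without TMM they were 0.10 (GATA relatives), 0.071 (FGF signal), 1.44 (primitive endoderm markers) and 0.32 (endothelial). With no filter on low counts they were 0.021 (GATA relatives), 0.038 (forkhead relatives), 2.71 (visceral endoderm), -0.19 (gut and pancreas), 0.13 (cardiac) and 0.35 (endothelial), since more low genes entered. Leaving out single libraries gave -0.033 to 0.27 for GATA relatives, -0.041 to 0.13 for SOX relatives, -0.025 to 0.041 for forkhead relatives, 0.18 to 0.52 for the hepatocyte nuclear factor network, 1.38 to 1.45 for primitive endoderm, 2.19 to 2.44 for visceral endoderm, -0.45 to -0.26 for epiblast and 0.25 to 0.33 for endothelial genes. The cause was not tested. Among single genes that were not called, Irf2bp1 changed sign with DESeq2 (0.0019) and library totals (0.028), and, with single libraries left out, Irf2bp1 lay between -0.094 and 0.095, Rbbp8 between -0.13 and 0.094, Pinx1 between -0.041 and 0.064, Gata1 between -0.57 and 0.33 and Gata3 between -0.19 and 0.59. Depth limits Hnf4a, Foxa2, Foxa1 and Sox17, which had at most 17 counts in any WT library. For these genes, in that order, DESeq2 gave SEs of 0.52, 0.32, 0.42 and 0.27. Those from edgeR were smaller, at 0.28, 0.22, 0.24 and 0.17, and may understate the error.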
